A study of Mus musculus with 6 samples.

Results

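Glycolysis breaks glucose down to pyruvate in the cytosol, and lactate dehydrogenase can then turn pyruvate into lactate. The lens has no blood supply of its own once its fetal vessels have regressed, and mature fibre cells lose their mitochondria, so anaerobic glycolysis is known as a main source of ATP in this tissue. Hypoxia-inducible factors are known activators of many of these enzyme genes. The 10 enzyme genes described here are Hk1, Hk2, Gpi1, Pfkl, Pfkm, Pfkp, Aldoa, Pgk1, Ldha and Pkm. They were chosen by name, all 10 had a row among the 13024 genes of the count table, and all 10 passed the filter on low counts (at least 10 counts in at least 3 libraries), which left 12879 genes to test.

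Lenses were taken from mouse embryos at E14.5, from a mixed C57BL/6 and FVB strain background. For each RNA-Seq library the 10 lenses of 5 embryos were pooled, and each group, Gata3 CKO or control, had 3 such pools. CKO embryos were homozygous for a conditional allele of Gata3 (f/f), a zinc finger transcription factor of differentiating lens fibres, and carried Pax6-Cre, a transgene active in the ectoderm that forms lens and cornea, which removes exon 4 of the allele. The labels call the other pools wild type, the study's text gives their genotype as Gata3 f/wt without Cre in its Results and as Gata3 f/f in its Methods, and they are named control here. Pax6-Cre was given for CKO only, so loss of Gata3 and presence of the transgene cannot be told apart. The comparison of CKO with control asked which transcripts differ in lenses in which Gata3 was targeted.

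Control replicates 1, 2 and 3 held 15815805, 16337405 and 17342712 counts, and CKO replicates 1, 2 and 3 held 15157230, 18811104 and 18292985. Levels are given as CPM, counts scaled to a library size of 1e6 after TMM normalisation. The count of Gata3 itself was 202, 386 and 156 in the control libraries and 910, 1064 and 894 in the libraries labelled CKO. Gata3 thus stood at 12.8, 27.2 and 8.71 CPM in control and at 59.0, 54.1 and 46.5 CPM in CKO, higher in each library labelled CKO than in each control library (log2 fold change 1.72, standard error 0.40, edgeR adjusted p = 0.650). DESeq2 without a prior called Gata3 (adjusted p = 0.00163). The table holds a single count per gene, so counts outside exon 4 cannot be set apart and this count does not check the labels. The study's text reports that its reads showed the excision in mutant lenses, and reads were not analysed here. Of the lens fibre markers tested, 6 of 11 had all CKO values below all control values and 0 all above (over all genes 4.69% and 3.67%), and edgeR called 0 of them at an adjusted p under 0.05, with 8 at an unadjusted p under 0.05, all lower in CKO (over all genes 2.24% were so). DESeq2 without a prior called 9 of the 27 crystallins and fibre markers, all lower in CKO, against 0.66% of all genes in either direction. Several of these markers were reported by the study from these libraries, so their direction is not independent of its findings. Directions below are therefore those of the libraries labelled CKO against control.

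The libraries held lens RNA and differed in what else they held. All 16 crystallin genes and all 11 lens fibre markers had a row. The crystallins summed to 93273, 189392 and 64181 CPM in control replicates 1, 2 and 3 and to 71414, 57027 and 52088 CPM in CKO replicates 1, 2 and 3, with Cryaa the most abundant. The fibre markers summed to 7257, 15436 and 5314 CPM in control and to 5213, 4401 and 3774 CPM in CKO. Control replicate 2 was thus highest in both lists. The 6 lens epithelium markers, led by Pax6, which retina also expresses, summed to 1088 to 1508 CPM over the 6 libraries. Mesenchyme markers (10 of 11 in the table, led by Col1a2) summed to 2305, 650.3 and 307 CPM in control and to 347, 4013 and 576 CPM in CKO, and pigment cell markers (6 of 7, led by Pmel) to 326, 81.0 and 59.3 CPM and to 76.8, 325 and 66.5 CPM. Control replicate 1 and CKO replicate 2 therefore stood apart in both of these lists. Retina markers (10 of 10, led by Sfrp2) summed to 1705, 1112 and 2228 CPM in control and to 1660, 1539 and 2135 CPM in CKO, lowest in control replicate 2. Blood markers (9 of 10, led by Hbb-y) summed to 603, 1445 and 399 CPM in control and to 343, 472 and 464 CPM in CKO, with Hba-a2, Hbb-bs and Hbb-bt under 1 CPM in every library. Vessel markers (7 of 7, led by Kdr) ranged from 228 to 329 CPM over the libraries, macrophage markers (7 of 8, led by Csf1r) from 54.5 to 107 CPM, skeletal muscle markers (10 of 13, led by Myh3) from 82.3 to 346 CPM, and surface ectoderm markers (7 of 8, led by Krt5) from 44.4 to 161.5 CPM. None of the marker genes in the table other than the 3 globin genes was under 1 CPM in every library.

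No difference between control and CKO lenses was called in the 10 enzyme genes, nor by edgeR in any gene of the table. None of the 10 was called at an adjusted p under 0.05 by edgeR's quasi-likelihood test, and none had an unadjusted p under 0.05. The fitted log2 fold changes ran from -0.12 for Hk2 to 0.16 for Pgk1, 5 above and 5 below 0, with a median of 0.02 beside 0.002 over all genes tested. The control and CKO values overlapped for all 10. Over the whole table the same test called 0 of 12879 genes (0%), 457 (3.55%) had an unadjusted p under 0.05, 168 (1.3%) of them higher and 289 (2.24%) lower in CKO, and the CKO values lay all above the control values in 473 genes (3.67%) and all below them in 604 (4.69%). DESeq2 called 85 genes (0.66%) without a prior on fold changes and 78 (0.606%) with a normal prior, limma voom called 0 (0%), and no such call fell on the 10 enzyme genes. The 95% confidence interval of the log2 fold change lay between -0.5 and 0.5 for 8 of the 10, against 60.3% of all genes tested, and between -1 and 1, a 2-fold change in either direction, for 9 of the 10, against 86.2% of all genes tested.

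**Figure D1:**
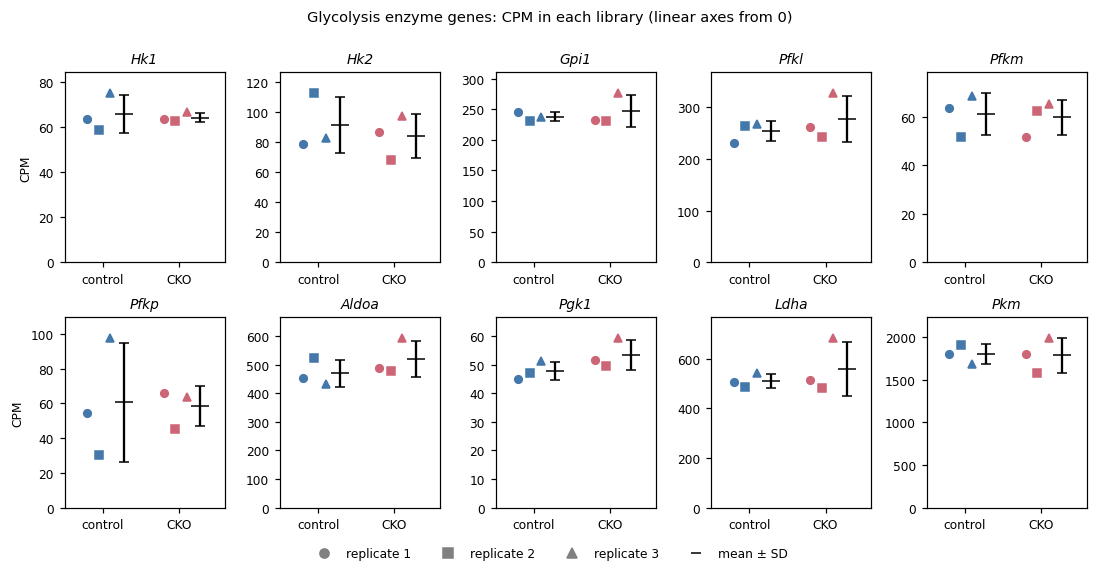
CPM of the 10 enzyme genes in each library (points, shaped by replicate number, with an axis from 0 in each panel) and the mean ± SD of 3 pools per group (bars). Control (blue) and CKO (red) points overlap in every panel, and Pfkp is the most spread, from 30.1 to 97.9 CPM.

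**Figure D2:**
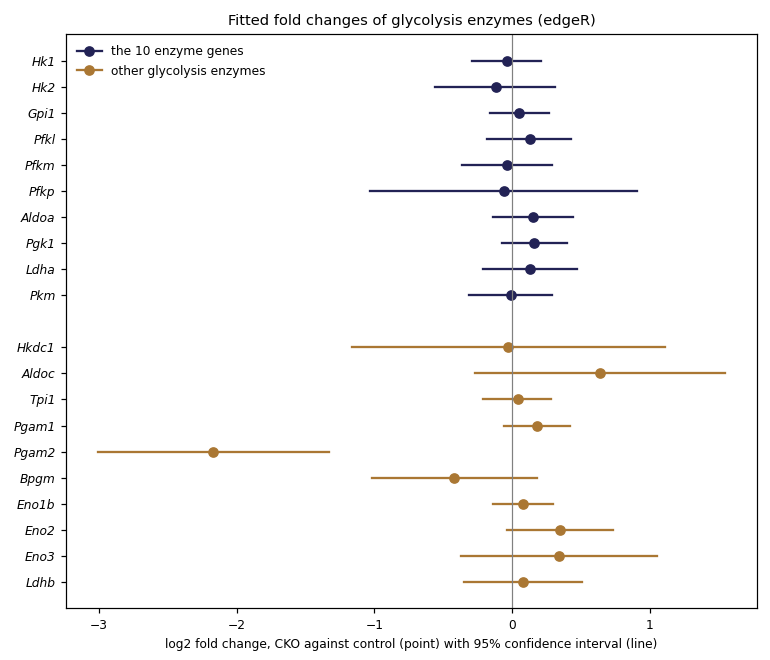
Fitted log2 fold change of CKO against control on the horizontal axis, with its 95% confidence interval, for the 10 enzyme genes (dark) and the 10 other glycolysis enzymes tested (brown). All intervals of the dark rows include 0, and of the brown rows only that of Pgam2 (-3.01 to -1.33) does not.

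Glucose enters the pathway by phosphorylation through hexokinase. Hk1, which encodes the widely expressed hexokinase 1, lies on chromosome 10 (chr10:62268855-62379908, reverse strand, here and below GENCODE M21 on GRCm38, the assembly of mm10). Hk1 measured 63.7, 58.7 and 75.1 CPM in control and 63.6, 62.4 and 66.5 CPM in CKO. The CKO values lay within the control range (log2 fold change -0.04, 95% confidence interval -0.29 to 0.21). Hk2, which encodes hexokinase 2, the form known from muscle and from proliferating cells, lies at chr6:82725025-82774454 on the reverse strand. Hk2 measured 79.1, 113 and 82.7 CPM in control and 86.6, 68.1 and 97.5 CPM in CKO. It was highest in control replicate 2, the library with most crystallin RNA, and lowest in CKO replicate 2, a library rich in mesenchyme markers (log2 fold change -0.12, interval -0.56 to 0.31). Over all genes tested, 31.6% were highest in control replicate 2 and 11.1% were lowest in CKO replicate 2.

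Scaled by exon length, hexokinase transcripts were shared about evenly between the isozymes. Hk2 took 51.1%, 61.8% and 48.0% of the length-scaled hexokinase 1 and 2 counts in control (53.6% ± 7.22, SD, n = 3) and 53.4%, 47.8% and 55.2% in CKO (52.1% ± 3.82, SD, n = 3). The share of Hk2 was thus highest in control replicate 2 and overlapped between groups, with a difference of -1.51 percentage points (exact two-sided permutation p = 0.80; the smallest p that 3 against 3 pools can give is 0.10). Without control replicate 2 the difference was 2.56 points and without CKO replicate 2 it was 0.628 points, so its direction rested on either library.

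Gpi1 encodes glucose-6-phosphate isomerase (chr7:34201330-34230336, reverse strand). Gpi1 measured 245, 230.8 and 237 CPM in control and 233, 230.5 and 277 CPM in CKO. Its highest library exceeded its lowest by 1.20-fold, and 22.5% of the genes tested had a smaller range on the log2 scale, so it was among the steadier genes (log2 fold change 0.05, interval -0.16 to 0.27).

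Phosphofructokinase commits the sugar to glycolysis and is built from liver, muscle and platelet subunits. The liver subunit gene Pfkl (chr10:77986947-78010083, reverse strand) measured 230.3, 262 and 267 CPM in control and 261, 242 and 327 CPM in CKO. CKO replicate 3 was highest and the other libraries overlapped (log2 fold change 0.13, interval -0.18 to 0.43). The muscle subunit gene Pfkm (chr15:98092589-98132451, forward strand) measured 63.5, 51.7 and 68.4 CPM in control and 51.6, 62.1 and 65.1 CPM in CKO, ranges that nearly coincided (log2 fold change -0.04, interval -0.36 to 0.29).

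The platelet subunit gene Pfkp (chr13:6579768-6648777, reverse strand) was the exception in spread. Pfkp measured 54.3, 30.1 and 97.9 CPM in control and 66.3, 45.5 and 63.9 CPM in CKO. Its highest library exceeded its lowest by 3.25-fold, a range on the log2 scale of 1.70 against a median of 0.44 over the genes tested, and 94.3% of those genes had a smaller range. All 3 CKO values lay inside the control range, the log2 fold change was -0.06 and its interval ran from -1.03 to 0.91. That interval holds a fall of slightly more than 2-fold and a rise of nearly 2-fold. Pfkp was lowest in control replicate 2 and highest in control replicate 3, as were the summed retina markers (1112 and 2228 CPM), while the crystallins were highest in control replicate 2. Such positions were common, since 31.6% of all genes tested were lowest in control replicate 2 and 23.6% were highest in control replicate 3. Without control replicate 3 the log2 fold change of Pfkp was 0.47. In bulk RNA, fewer cells of a type and less RNA per cell cannot be told apart, and the part of retinal RNA in the values of Pfkp was not tested.

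The liver subunit gave most of the phosphofructokinase transcripts. Pfkl took 64.6%, 74.4% and 61.1% of the length-scaled counts of the 3 subunit genes in control (66.7% ± 6.88, SD, n = 3) and 68.2%, 67.4% and 70.6% in CKO (68.7% ± 1.63, SD, n = 3). Pfkm took 19.9% ± 2.01 in control and 18.6% ± 2.58 in CKO, and Pfkp 13.4% ± 6.02 and 12.7% ± 2.10 (SD, n = 3 each). The share of Pfkp ran from 7.40% in control replicate 2 to 19.4% in control replicate 3, so that the control pools differed more from each other than the group means did. The differences between groups were 2.03, -1.35 and -0.683 percentage points for Pfkl, Pfkm and Pfkp (exact two-sided permutation p = 0.70, 0.50 and 0.90). Without control replicate 3 the differences of Pfkl and Pfkp were -0.772 and 2.36 points, and without CKO replicate 2 that of Pfkp was 0.145 points. That of Pfkm was -0.244 points without control replicate 1, -2.22 without control replicate 2, -0.43 without CKO replicate 1, -2.83 without CKO replicate 2 and -0.789 without CKO replicate 3.

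**Figure D3:**
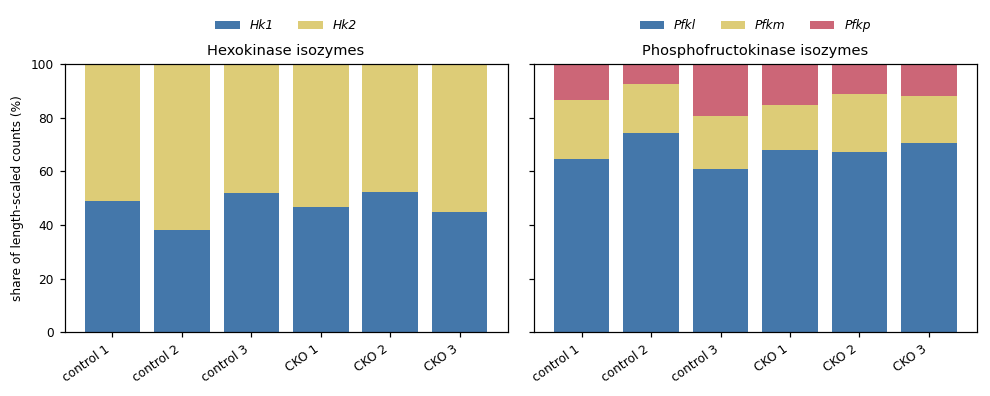
Share of length-scaled counts in percent (vertical axis) taken by each hexokinase gene (left) and each phosphofructokinase subunit gene (right) in each of the 6 libraries; the bars of a library add up to 100%. Hk1 and Hk2 split the hexokinase counts about evenly, and Pfkl holds 61.1% to 74.4% of the phosphofructokinase counts.

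In the later steps, aldolase splits the sugar, phosphoglycerate kinase makes ATP, pyruvate kinase makes pyruvate and more ATP, and lactate dehydrogenase makes lactate. Aldoa, the aldolase gene of muscle and most embryonic tissue (chr7:126795234-126800751, reverse strand), measured 454, 522.5 and 433 CPM in control and 487, 480.1 and 595 CPM in CKO. CKO replicate 3 was highest and control replicate 3 lowest (log2 fold change 0.15, interval -0.14 to 0.44). Pgk1, which encodes phosphoglycerate kinase 1, lies on the X chromosome (chrX:106187100-106203699, forward strand). Pgk1 measured 45.1, 47.1 and 51.2 CPM in control and 51.8, 49.4 and 59.4 CPM in CKO. Only CKO replicate 2, at 49.4 CPM, lay below the highest control library (log2 fold change 0.16, interval -0.07 to 0.40, unadjusted p = 0.147, adjusted p = 1 in edgeR).

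Ldha, the lactate dehydrogenase subunit gene of anaerobic tissue (chr7:46841475-46855627, forward strand), measured 504, 486 and 542 CPM in control and 512, 482 and 683 CPM in CKO. CKO replicate 3 stood above the others and CKO replicates 1 and 2 lay within or just below the control range (log2 fold change 0.13, interval -0.21 to 0.47). Pkm, the pyruvate kinase gene whose transcripts are spliced into the M1 or the M2 form (chr9:59656368-59679375, forward strand), measured 1806, 1912 and 1684 CPM in control and 1799, 1574 and 1985 CPM in CKO. The CKO pools held both the lowest and the highest value (log2 fold change -0.01, interval -0.31 to 0.29). The counts per gene do not separate the M1 from the M2 form.

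CKO replicate 3 was the highest library for 6 of the 10 enzyme genes, namely Gpi1, Pfkl, Aldoa, Pgk1, Ldha and Pkm, while 12.4% of all genes tested were highest there. The 10 genes summed to 3545, 3714 and 3538 CPM in control (3599 ± 100.1, SD, n = 3) and to 3613, 3297 and 4219 CPM in CKO (3709 ± 469, SD, n = 3). In these TMM-scaled sums the CKO pools thus spread on both sides of the control pools. As shares of raw counts, given at the end, no CKO pool lay below all control pools. On the log2 scale the mean of the 10 genes, each centred on its own mean, was -0.06, -0.10 and 0.09 in control and -0.01, -0.12 and 0.20 in CKO. Without CKO replicate 3 the median log2 fold change of the 10 genes was -0.05, and the log2 fold changes of Gpi1, Pfkl and Ldha were -0.04, -0.01 and -0.04, while those of Aldoa and Pgk1 were 0.04 and 0.08. CKO replicate 3 also held the fewest crystallin counts (52088 CPM) and high retina markers (2135 CPM), and their part in its enzyme levels was not tested.

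**Figure D4:**
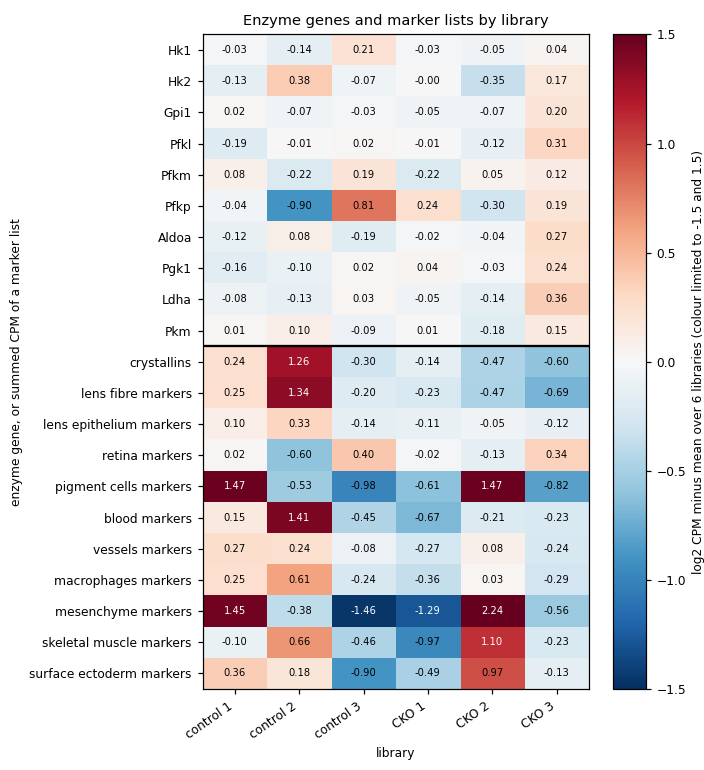
Difference of log2 CPM from the mean over the 6 libraries (colour and printed number) for each enzyme gene (upper rows) and for the summed CPM of each marker list (lower rows), with libraries as columns. CKO replicate 3 is above the mean in all 10 upper rows. Pfkp (-0.90 and 0.81) and the retina markers (-0.60 and 0.40) are lowest in control replicate 2 and highest in control replicate 3. Among all genes tested, 31.6% were lowest in control replicate 2 and 23.6% highest in control replicate 3. In CKO replicates 1 and 3 Pfkp is at 0.24 and 0.19, and the retina markers are at -0.02 and 0.34.

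Of the genes outside the 10, those with the most similar course over the 6 libraries were Cdk2ap2, Trim28, Sap30bp, 1600014C10Rik and Ythdf2. The root mean square difference of their centred log2 CPM from the mean course of the 10 genes was 0.023, 0.031, 0.031, 0.033 and 0.034. They were chosen for this likeness, so that each was also highest in CKO replicate 3 is no separate finding (Trim28, for example, at 656 CPM there and at 537.5 to 634 CPM in the other libraries).

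Per kilobase of exon, the enzyme genes differed far more from each other than any of them did between groups. Pkm was highest at 690 ± 57.3 CPM per kilobase (SD over the 6 libraries), followed by Ldha (282 ± 40.0) and Aldoa (271.5 ± 31.5), whose ranges overlapped. Gpi1 (84.0 ± 6.17) and Pfkl (71.0 ± 8.98) came next and overlapped as well. The lowest levels were those of Pgk1 (27.8 ± 2.72), Pfkm (20.1 ± 2.37), Hk2 (15.9 ± 2.83), Hk1 (14.0 ± 1.20) and Pfkp (13.9 ± 5.33), and the ranges of the last 4 overlapped from each to the next. The level of Pgk1 is uncertain, because processed pseudogenes match its transcript with 100% identity over 1255 and 1252 bases and their fragments are not told apart from its own. Ldha and Pgk1 each had 4 copies with at least 95% identity over at least 200 bases, and Gpi1 and Pkm each had 1, none of which had a row in the table. Exons of Pfkp share 748 bases with Pitrm1 on the other strand, those of Gpi1 356 bases with Gm26762, those of Hk1 157 bases with Hk1os, those of Aldoa 25 bases with Fam57b and those of Pfkm 18 bases with Senp1. Exons of Pkm share 334 bases with Gm49759 on the same strand. The libraries were strand-specific by the study's methods, but the strand and overlap settings of the counting are not given in the sources used here, and these values are uncertain to that extent.

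The promoters of Ldha, Aldoa and Pgk1 are shown because these genes are textbook targets of hypoxia-inducible factors, and that of Pfkp because its levels varied most. For Ldha and Aldoa, which have more than 1 window, a window with a match was chosen after the search, and the other Ldha window and 1 of the 3 Aldoa windows hold no match. All 10 genes matched the RefSeq promoter table (GRCm38.p6), with 18 windows of 300 bases from 250 bases before to 50 after a gene start. Capitals mark ACGTG, the core of the hypoxia response element, or its complement CACGT, and ACGTG is also part of CACGTG, an E-box. The Ldha window lies at chr7:46845554-46845853 on the forward strand, the Aldoa window at chr7:126799129-126799428 on the reverse strand, the Pgk1 window at chrX:106186850-106187149 on the forward strand and the Pfkp window at chr13:6648722-6649021 on the reverse strand.
Ldha: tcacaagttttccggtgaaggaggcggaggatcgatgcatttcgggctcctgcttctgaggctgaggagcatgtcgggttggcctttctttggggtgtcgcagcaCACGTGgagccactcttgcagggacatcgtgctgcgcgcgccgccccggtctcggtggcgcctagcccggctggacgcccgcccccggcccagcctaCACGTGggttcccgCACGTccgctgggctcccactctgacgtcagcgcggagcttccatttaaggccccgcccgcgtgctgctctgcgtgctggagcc
Aldoa: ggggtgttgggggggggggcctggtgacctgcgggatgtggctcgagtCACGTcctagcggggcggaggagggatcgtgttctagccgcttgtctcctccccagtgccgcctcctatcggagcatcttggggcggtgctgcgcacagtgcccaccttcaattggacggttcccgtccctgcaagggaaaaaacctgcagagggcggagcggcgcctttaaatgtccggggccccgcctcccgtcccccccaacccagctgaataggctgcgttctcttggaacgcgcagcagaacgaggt
Pgk1: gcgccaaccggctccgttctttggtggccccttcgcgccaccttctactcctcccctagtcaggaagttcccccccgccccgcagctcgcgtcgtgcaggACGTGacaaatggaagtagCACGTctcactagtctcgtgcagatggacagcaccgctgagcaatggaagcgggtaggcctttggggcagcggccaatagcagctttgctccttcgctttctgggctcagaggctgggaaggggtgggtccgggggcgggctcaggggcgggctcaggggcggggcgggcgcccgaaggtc
Pfkp: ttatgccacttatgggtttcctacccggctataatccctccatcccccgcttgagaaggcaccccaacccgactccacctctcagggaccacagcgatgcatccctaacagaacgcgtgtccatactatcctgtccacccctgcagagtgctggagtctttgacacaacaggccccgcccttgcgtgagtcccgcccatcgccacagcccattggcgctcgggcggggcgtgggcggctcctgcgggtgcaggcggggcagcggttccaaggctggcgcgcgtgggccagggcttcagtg

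ACGTG occurred on either strand in at least 1 window of 7 of the 10 genes, Hk1, Hk2, Pfkm, Aldoa, Pgk1, Ldha and Pkm, and in 9 of their 18 windows, some of which overlap. It occurred in 19.6% of all 32851 windows of the table and in 25.1% of the 12836 windows of genes tested. These shares are per window and cannot be set against the count of genes, since a gene with several windows has more chances of a match. The share per gene over all genes was not computed. The Ldha window shown holds 2 copies of CACGTG and 1 further ACGTG outside them, while Pgk1 holds 2 matches and Aldoa 1, all outside CACGTG. The windows of Gpi1, Pfkl and Pfkp hold no match, and no link between matches and levels was tested. The GATA motif WGATAR (W is A or T, R is A or G), searched on both strands, occurred in 5 of the 18 windows (27.8%), which belong to Pfkm, Aldoa and Pkm, against 29.8% of all windows and 18% of the windows of genes tested. These are matches of letters, and binding was not measured here.

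The remaining glycolysis enzymes had log2 fold changes from -2.17 for Pgam2 to 0.64 for Aldoc, a wider span than that of the 10. Of 16 such genes, 11 had a row and 10 were tested, 0 were called by edgeR, 7 were above and 3 below 0 in log2 fold change, and the median was 0.08. Hk3, Gapdh, Pgk2, Pklr and Ldhc were not analysed here. Pgam2, the muscle form of phosphoglycerate mutase, measured 62.1, 114 and 46.3 CPM in control and 19.3, 16.6 and 13.5 CPM in CKO. Its 3 CKO values lay below all 3 control values (log2 fold change -2.17, standard error 0.35, unadjusted p = 0.000582, adjusted p = 0.469 in edgeR), and DESeq2 without a prior called it (adjusted p = 9.73e-08). The adjusted p over the other edgeR and voom settings ran from 0.076 without control replicate 2 to 1. Pgam2 was highest in control replicate 2, as were the crystallins and 31.6% of all genes tested. The study had chosen Pgam2 from these libraries, so its direction is not independent evidence. Pgam1, the form of most tissues, measured 52.0, 58.5 and 50.3 CPM in control and 58.7, 56.4 and 66.8 CPM in CKO, ranges that overlapped (log2 fold change 0.18, interval -0.06 to 0.42, and 0.10 without CKO replicate 3).

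Among the enolase genes, Eno2 of neurons measured 12.1, 8.81 and 11.3 CPM in control and 12.6, 14.2 and 14.1 CPM in CKO, all CKO values above all control values (log2 fold change 0.35, and 0.23 without control replicate 2, unadjusted p = 0.0695, adjusted p = 1 in edgeR). Eno3 of muscle overlapped between groups, at 38.0 to 88.8 CPM in control and 67.7 to 83.1 CPM in CKO. Eno1 was listed at 0 in all 6 libraries, and its copy Eno1b at 249.6 to 283 CPM in control and 259.9 to 308 CPM in CKO. The transcripts of Eno1 and Eno1b match with 99.5% identity over 1736 bases, so the counts of the pair are uncertain.

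The other tested enzymes overlapped between groups. Tpi1, triose phosphate isomerase, measured 382 to 390.0 CPM in control and 365 to 452 CPM in CKO, highest in CKO replicate 3. Bpgm, which makes 2,3-bisphosphoglycerate, measured 68.6, 117 and 59.1 CPM in control and 59.8, 59.0 and 63.8 CPM in CKO, set apart by control replicate 2 alone (log2 fold change -0.42, and -0.06 without that library). Aldoc, a second aldolase, measured 17.0, 35.8 and 12.4 CPM in control and 39.2, 29.9 and 32.0 CPM in CKO (log2 fold change 0.64, interval -0.27 to 1.55, 0.36 without control replicate 3 and 1.21 without control replicate 2). Ldhb and Hkdc1 had log2 fold changes of 0.08 and -0.03. Hkdc1 was, like Pfkp, lowest in control replicate 2 (2.33 CPM, as were 31.6% of all genes tested) and highest in control replicate 3 (9.16 CPM, as were 23.6%).

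Upstream and downstream of the enzymes, edgeR called none of the pathway genes. Of the 88 tested, 8 (9.09%) had all CKO values above all control values and 7 (7.95%) all below, against 3.67% and 4.69% of all genes tested, and with library totals in place of TMM factors the counts over all genes were 1408 and 292 in place of 473 and 604. Of 10 glucose and lactate transport genes tested, 6 were above and 4 below 0 (median log2 fold change 0.01). Slc2a1, which encodes the glucose transporter GLUT1 and was the most abundant of them, measured 737, 912.5 and 748 CPM in control and 1026, 891 and 1034 CPM in CKO. CKO replicate 2 lay below control replicate 2, so the groups overlapped (log2 fold change 0.30, interval 0.01 to 0.59, unadjusted p = 0.0445, adjusted p = 1 in edgeR). The lactate transporter genes Slc16a3 and Slc16a7 had the highest and the lowest log2 fold change (0.35 and -0.37), and each moved with single libraries. Slc16a3 was at 0.06 without CKO replicate 3 and at 0.58 without CKO replicate 2. Slc16a7 was at 0.00 without control replicate 1 and at -0.71 without control replicate 2.

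Of 5 genes that set fructose 2,6-bisphosphate, the activator of phosphofructokinase, 3 were above and 2 below 0 (median log2 fold change 0.04). Pfkfb3, an enzyme that makes it, measured 41.1, 43.0 and 44.7 CPM in control and 55.3, 47.7 and 59.1 CPM in CKO. All CKO values lay above all control values (log2 fold change 0.33, interval 0.09 to 0.57, unadjusted p = 0.0137, adjusted p = 0.989 in edgeR), and it stayed between 0.26 and 0.41 when each library was left out. Tigar was lowest in the list (log2 fold change -0.12, and -0.18 to -0.05 when each library was left out).

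Of 11 genes that carry pyruvate into mitochondrial metabolism, 4 were above and 7 below 0 (median log2 fold change -0.03). The pyruvate dehydrogenase kinase gene Pdk1, whose product holds pyruvate dehydrogenase inactive, measured 72.4, 69.7 and 79.3 CPM in control and 87.4, 93.6 and 124 CPM in CKO. Pdk3, of the same family, measured 31.7, 28.3 and 34.8 CPM in control and 35.9, 37.4 and 41.4 CPM in CKO. Both were separated between the groups, with log2 fold changes of 0.46 (interval 0.13 to 0.80, unadjusted p = 0.0141, adjusted p = 0.997 in edgeR) and 0.27 (interval 0.02 to 0.53, unadjusted p = 0.0400, adjusted p = 1). Both were highest in CKO replicate 3, without which the log2 fold change of Pdk1 was 0.29. Dld, the most abundant of the list, had a log2 fold change of -0.06 and Pdp2, the lowest, one of -0.08. When each library was left out, Dld ran from -0.10 to -0.02 and Pdp2 from -0.16 to 0.02.

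Of 14 hypoxia targets outside glycolysis, 9 were above and 5 below 0 (median log2 fold change 0.03), and 3 (Bnip3, Mxi1 and Ddit4, the last named after its values were seen) had all CKO values above all control values and 1 (Ndrg1) all below, against 3.67% and 4.69% of all genes tested. Bnip3, a mitophagy receptor gene, measured 29.9, 32.0 and 32.2 CPM in control and 43.3, 38.8 and 50.8 CPM in CKO (log2 fold change 0.50, interval 0.22 to 0.77, unadjusted p = 0.00376, adjusted p = 0.638 in edgeR). Mxi1, an antagonist of Myc, measured 55.4, 57.7 and 64.1 CPM in control and 74.5, 68.8 and 69.5 CPM in CKO (log2 fold change 0.26, unadjusted p = 0.0185, adjusted p = 1). Ndrg1 went the other way, at 82.7, 124 and 94.3 CPM in control and 65.7, 53.4 and 55.6 CPM in CKO (log2 fold change -0.78, interval -1.18 to -0.39, unadjusted p = 0.00226, adjusted p = 0.582 in edgeR, 0.00659 in DESeq2 without a prior). Ndrg1 is also among the genes that the study chose from these libraries. P4ha1, the most abundant, had a log2 fold change of 0.00 (interval -0.57 to 0.58).

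**Figure D5:**
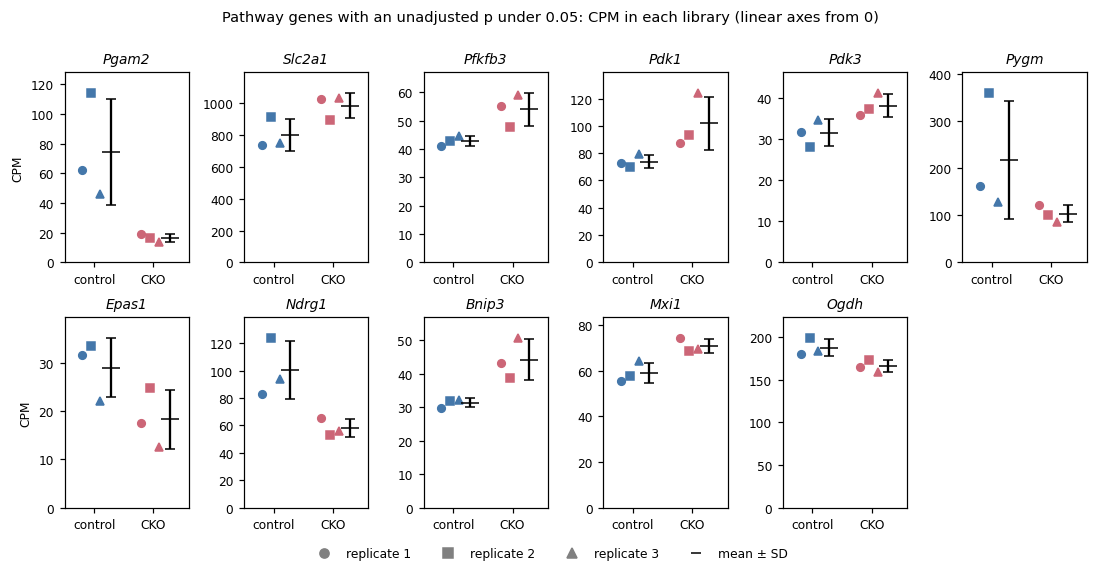
CPM of the 11 pathway genes with an unadjusted p under 0.05 in edgeR (of 98 tested with the other glycolysis enzymes, 11.2%, against 3.55% of all genes), in each library (points, shaped by replicate number, axes from 0) with the mean ± SD of 3 pools per group (bars). No adjusted p is under 0.05 in edgeR, and control (blue) and CKO (red) points are separated for all of them but Slc2a1 and Epas1.

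Of the 10 hypoxia factor genes, 5 were above and 5 below 0 (median log2 fold change -0.01). Hif1a, the most abundant, measured 381, 366 and 402 CPM in control and 400.0, 353 and 374.5 CPM in CKO, with overlapping values (log2 fold change -0.03, interval -0.22 to 0.17). Epas1, which encodes HIF-2alpha and is known from vessels, measured 31.7, 33.5 and 22.0 CPM in control and 17.4, 24.8 and 12.6 CPM in CKO (log2 fold change -0.67, unadjusted p = 0.0493, adjusted p = 1 in edgeR), and the vessel markers had a median log2 fold change of -0.45. The part of vessel RNA in the values of Epas1 was not tested. Vhl had the highest log2 fold change of the list (0.18), at 47.0, 48.4 and 48.9 CPM in control and 50.9, 54.0 and 58.3 CPM in CKO, all CKO values above all control values (unadjusted p = 0.0649, adjusted p = 1 in edgeR).

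In the other routes of sugar, Pygm, the muscle glycogen phosphorylase gene, was the most abundant glycogen gene and measured 162, 361 and 129 CPM in control and 122.5, 102 and 85.8 CPM in CKO. Its CKO values lay below all control values (log2 fold change -1.07, interval -2.00 to -0.14, unadjusted p = 0.0302, adjusted p = 1 in edgeR), but without control replicate 2 the log2 fold change was -0.48. Of 12 genes of glycogen and gluconeogenesis 4 were above and 8 below 0 (median -0.08, highest Pygb at 0.09). Sord and Khk, the polyol and fructose genes tested, both had CKO values below all control values (log2 fold changes -0.29 and -0.48, unadjusted p = 0.0592 and 0.0508, adjusted p = 1 in edgeR), Sord being at -0.18 without control replicate 1, and Akr1b3 and Akr1b1 were not analysed here. The 8 pentose phosphate genes had log2 fold changes between -0.11 (Rpia) and 0.05 (G6pdx), Tkt being the most abundant, and overlapped between groups. Among them 1 was above and 7 were below 0 (median log2 fold change -0.07), and Rpia was at -0.00 without control replicate 3. Of 16 tricarboxylic acid cycle genes 3 were above and 13 below 0 (median log2 fold change -0.06, highest Idh3a at 0.13, and at 0.05 without control replicate 3). Cs, the most abundant, had a log2 fold change of 0.00, and Ogdh, the lowest, measured 180, 199 and 184 CPM in control and 166, 173 and 159 CPM in CKO (log2 fold change -0.18, unadjusted p = 0.0442, adjusted p = 1 in edgeR).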

How the data were processed

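RNA-Seq counts of 3 control and 3 Gata3 CKO pools of E14.5 lenses were used. The authors aligned the reads to mm10 with TopHat2 2.0.13, counted fragments per RefSeq gene with HTSeq 0.6.1, and deposited raw counts of genes whose mean FPKM exceeded 1 in CKO or control. CKO replicates 1, 2 and 3 are numbered by their titles, and their count columns are named CKO2, CKO3 and CKO4. Library totals were 15157230 to 18811104 counts, and the spread between pools sets the precision. Counts were tested in edgeR 4.0.16 (R 4.3.3) with TMM factors, a robust quasi-likelihood fit and p adjusted by Benjamini-Hochberg (threshold 0.05). Genes entered the test when 3 or more libraries each held 10 or more counts. Log2 CPM used a prior count of 1. Isozyme shares, counts divided by exon length, were compared with exact permutation tests. Exon lengths are those of GENCODE M21 transcripts matched to RefSeq, and copies were searched with blastn. The fit was tested on simulated data, and no result given here rests on that test. Alternatives were DESeq2 1.42.0, limma voom (limma 3.58.1), other scalings and filters, the replicate block and each library left out.

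Named genes are the 10 enzyme genes, Gata3, the tested genes among other glycolysis enzymes, of each further pathway list the lowest, highest and most abundant gene and those with an unadjusted p under 0.05, the most abundant gene of most marker lists, and the 5 most similar genes. Genes outside it were named after their values were seen. The enzyme genes and lists were chosen with earlier results of these data known, and 3 genes first listed are not reported here.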

Additional observations from a re-analysis of the deposited data

How the results depend on the processing

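Under all 16 alternatives, 0 of the 10 enzyme genes were called, and their median log2 fold change ran from -0.05 (without CKO replicate 3) to 0.13 (library totals only, which moved the median of all genes from 0.002 to 0.103). The genes called over the table were 85 with DESeq2 without a prior, 78 with a normal prior and 1 with library totals only (Megf10), and 0 to 1 when a library was left out (4930412O13Rik without control replicate 3). With library totals the groups did not overlap in 1408 genes with CKO above and 292 with CKO below, (10.9% and 2.27%), and in 1 of the 10 enzyme genes, Aldoa. Of the 47 genes followed, DESeq2 called Gata3, Pgam2 and Ndrg1, which edgeR did not. Pgam2 had a log2 fold change of -0.83 with the normal prior.

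Log2 fold changes near 0 changed direction in 38 of 752 pairs of gene and alternative, counting a pair only where neither value was 0.00 at 2 decimals. P4ha1 and Cs, at 0.00, are thus not counted, and ran from -0.20 to 0.31 and from -0.02 to 0.03 when each library was left out. With library totals only, the pairs that changed direction were at 0.06 for Hk1 and Pfkm, 0.01 for Pfkp, 0.10 for Pkm, 0.04 for Hkdc1 and Dld, 0.01 for Pdp2 and Tkt and 0.07 for Hif1a, all below the median of all genes under that scaling. With limma voom Pfkp was at 0.06 and Hkdc1 at 0.11. Leaving out each library gave ranges of -0.10 to 0.07 for Hk1, -0.24 to 0.06 for Hk2, -0.04 to 0.10 for Gpi1, -0.01 to 0.22 for Pfkl, -0.13 to 0.06 for Pfkm, -0.37 to 0.47 for Pfkp, 0.04 to 0.24 for Aldoa, 0.08 to 0.22 for Pgk1, -0.04 to 0.23 for Ldha and -0.09 to 0.07 for Pkm. The ranges were -0.39 to 0.46 for Hkdc1, -0.07 to 0.09 for Tpi1, -0.07 to 0.25 for Ldhb, -0.16 to 0.02 for Pdp2, -0.01 to 0.10 for G6pdx, -0.23 to 0.05 for Tkt and -0.07 to 0.02 for Hif1a. The differences in share ran from -4.31 to 2.56 points for Hk2, -0.772 to 5.87 for Pfkl, -2.83 to -0.244 for Pfkm and -3.66 to 2.36 for Pfkp. Beyond the fewer libraries the causes were not tested.

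Deviations of libraries with the same number in their titles correlated at -0.487, 0.09 and 0.442 over genes, so the numbers did not pair the pools. With the replicate block 0 genes were called, no call changed, the median of the enzyme genes was 0.07, and Pfkp and Hkdc1 were at 0.08 and 0.12.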

Other observations

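Eno1 was not alone in being listed at 0: 42 of the 13024 genes had no count in any of the 6 libraries. The 10 enzyme genes together held 0.323% to 0.365% of all counts of a control library, and 0.368%, 0.345% and 0.443% of those of CKO replicates 1, 2 and 3. The pathway genes Pfkfb4, Ddit4, Slc16a1 and Hif1an, chosen after their values were seen, had CKO values apart from the control values as well, the former pair above and the latter pair below.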
